A study of Rattus norvegicus with 13 samples.

Results

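The genes described here encode the epithelial sodium channel, the sodium pump's beta subunits and a ubiquitin ligase that controls the channel: Scnn1a, Scnn1b, Scnn1g, Nedd4l, Atp1b1, Atp1b2 and Atp1b3. They were chosen by name as classical transport genes linked to the mineralocorticoid receptor, and all 7 were found among the 28357 gene symbols of the day 3 libraries. All 7 also passed the filter on low counts and were among the 14762 genes tested. Total RNA of peripheral cornea with limboscleral tissue was sequenced. The animals were wild-type Lewis rats, all male and 2 months old, with a limbal stem cell deficiency in which new vessels grow into the cornea. In the day 3 groups, 3 libraries came from rats given systemic spironolactone, an antagonist of the mineralocorticoid receptor, at 25 mg/kg/day by daily subcutaneous injection, and the labels give 3 days of treatment. Another 3 came from rats given the vehicle, 90% olive oil with 10% DMSO. The series has 13 libraries, and those of day 7 are not analysed here because they carry gene identifiers that no table used here pairs with symbols. The labels do not say whether libraries came from separate animals, so each p-value measures only the spread between these libraries.

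The epithelial sodium channel is built from an alpha, a beta and a gamma subunit, encoded by Scnn1a, Scnn1b and Scnn1g, and lets sodium enter through the apical membrane of absorbing epithelia. The sodium pump on the opposite membrane expels that sodium: its alpha subunit carries out the transport and its beta subunit brings the complex to the membrane. In kidney and colon aldosterone acts through the mineralocorticoid receptor to raise channel and pump activity, in part through the kinase SGK1, which restrains the ligase NEDD4L from removing the channel. In the cornea, ion transport by epithelium and endothelium helps to keep the stroma clear.

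Of the 7 genes, Scnn1g had the largest difference between treatments, with a mean level under spironolactone of 0.402 of that under vehicle. Atp1b2 was also lower, at 0.625 of the vehicle level, and Scnn1b at 0.697. Scnn1a, Atp1b3 and Nedd4l had values 1.19, 1.14 and 1.12 times those of vehicle, and Atp1b1 0.93 times. By edgeR's quasi-likelihood test with Benjamini-Hochberg adjustment over all genes tested, 0 of the 7 passed an adjusted p of 0.05, where 0% of all 14762 genes were called. At an unadjusted p under 0.05 there were 2, Scnn1g lower and Nedd4l higher, against 22.6% of all genes (12.2% higher and 10.4% lower). DESeq2 and limma-voom also called 0 of the 7, with 3 and 1 of them at an unadjusted p under 0.05. Of the 13898 genes to which DESeq2 gave an adjusted p, it called 9.67% (6.12% higher and 3.55% lower). In 2 of the 7, Scnn1a and Atp1b2, the CPM values of the treatments did not overlap, where this held for 32% of all genes. These shares among the 7 are close to those over all genes.

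Promoter sequences were available from RefSeq for 5 of the 7 genes, Scnn1b, Scnn1g, Nedd4l, Atp1b2 and Atp1b3. They come from the GRCr8 assembly, while the submitters' processing notes name rn6 and Rnor_6.0. Each window spans 250 bases before and 50 bases after the gene's start, and the 3 shown belong to the genes with the lowest values relative to vehicle. Capitals mark GC boxes, GGGCGG on either strand, and in Atp1b2 also TATAAA, the sequence of a TATA box.
Scnn1b, chr1:185861126-185861425, plus strand: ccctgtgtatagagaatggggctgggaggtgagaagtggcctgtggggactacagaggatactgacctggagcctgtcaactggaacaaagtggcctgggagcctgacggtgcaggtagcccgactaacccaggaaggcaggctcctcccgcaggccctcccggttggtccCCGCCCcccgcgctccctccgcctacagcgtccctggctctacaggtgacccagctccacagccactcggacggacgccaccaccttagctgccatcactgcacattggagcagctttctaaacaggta
Scnn1g, chr1:185735975-185736274, plus strand: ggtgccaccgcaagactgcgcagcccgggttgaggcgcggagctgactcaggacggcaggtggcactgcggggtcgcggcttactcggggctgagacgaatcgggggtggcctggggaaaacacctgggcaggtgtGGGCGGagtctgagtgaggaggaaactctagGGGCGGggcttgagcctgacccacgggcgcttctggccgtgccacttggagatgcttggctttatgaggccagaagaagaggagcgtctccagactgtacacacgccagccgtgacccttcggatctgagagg
Atp1b2, chr10:54823659-54823958, minus strand: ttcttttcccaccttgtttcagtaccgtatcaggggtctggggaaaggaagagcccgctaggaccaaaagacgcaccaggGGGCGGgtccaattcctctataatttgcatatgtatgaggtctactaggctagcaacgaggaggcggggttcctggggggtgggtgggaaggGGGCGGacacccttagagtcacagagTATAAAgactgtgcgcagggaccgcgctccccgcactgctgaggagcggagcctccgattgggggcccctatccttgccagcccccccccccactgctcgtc
Scnn1b and Scnn1g are next to each other on chromosome 1 in the RefSeq gene table, on the same strand. The Scnn1g window held 2 GC boxes, starting 114 and 83 bases before the start, and that of Scnn1b held 1. Nedd4l and Atp1b3 each had 6, and a GC box was found in 33.1% of all 33469 promoter windows of this length. The TATAAA of Atp1b2 began 52 bases before the start, and TATAAA was found in 14.2% of windows on either strand. Whether it acts as a TATA box was not tested. The half-site that steroid receptors bind, TGTTCT or AGAACA on the other strand, was found in 0 of the 5 windows and in 20.7% of all windows. With only 5 windows, 0 cannot be told from that share. Sites outside the windows, and any of Scnn1a and Atp1b1, were not searched. The full inverted repeat, AGAACA followed by 3 bases and TGTTCT, which contains the half-site on both strands, was in 0 of the 5 and in 0.0149% of all windows. TAATCC, the core bound by the photoreceptor factor CRX, was in 0 of the 5 and in 7.17% of all windows.

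The libraries held 18176059 to 25311091 estimated reads each. They also held transcripts of retina, skeletal muscle and lens markers, and several marker lists did not overlap between treatments. All 12 epithelial markers had positive log2 fold changes (median 0.58), and their summed level was 17173 to 19889 CPM with spironolactone and 9755 to 13509 CPM with vehicle. All 11 retina markers analysed had negative ones (median -0.97), and their sum was 266 CPM in spironolactone replicate 3, 3040 and 3874 CPM in the other spironolactone libraries and 4529 to 5030 CPM with vehicle. The rod gene Gnat1 was at 51.5 CPM in that library against 875 to 1558 CPM in the other 5. The 8 skeletal muscle markers analysed were all negative (median -2.03), with sums of 106 to 183 CPM against 327 to 697 CPM. Lens markers were highest in vehicle replicate 3, at 418 CPM against 9.83 to 38.7 CPM elsewhere. The corneal keratin gene Krt12 was present at 7.80 to 12.2 CPM, and no marker analysed was at 0 in all 6 libraries. In such bulk samples, fewer cells of a type and less RNA per cell cannot be told apart.

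Per unit of transcript length, the pump subunits were the abundant members and the channel subunits the scarce ones. Mean TPM over the 6 libraries was 658 for Atp1b3, 448 for Atp1b1, 148 for Atp1b2, 27.7 for Nedd4l, 7.97 for Scnn1a, 2.16 for Scnn1b and 1.25 for Scnn1g. Atp1b3 and Atp1b1 ranked 193 and 273 among the genes tested, and Scnn1g ranked 13511. Neighbours in this order did not overlap in any library except Scnn1b, at 1.2 to 3.59 TPM, and Scnn1g, at 0.44 to 2.29 TPM. The counts behind these values ran from 21 to 146 reads per library for Scnn1b and Scnn1g and from 321 to 440 for Scnn1a. Those for the 3 pump subunits ran from 2419 to 21186.

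**Figure D1:**
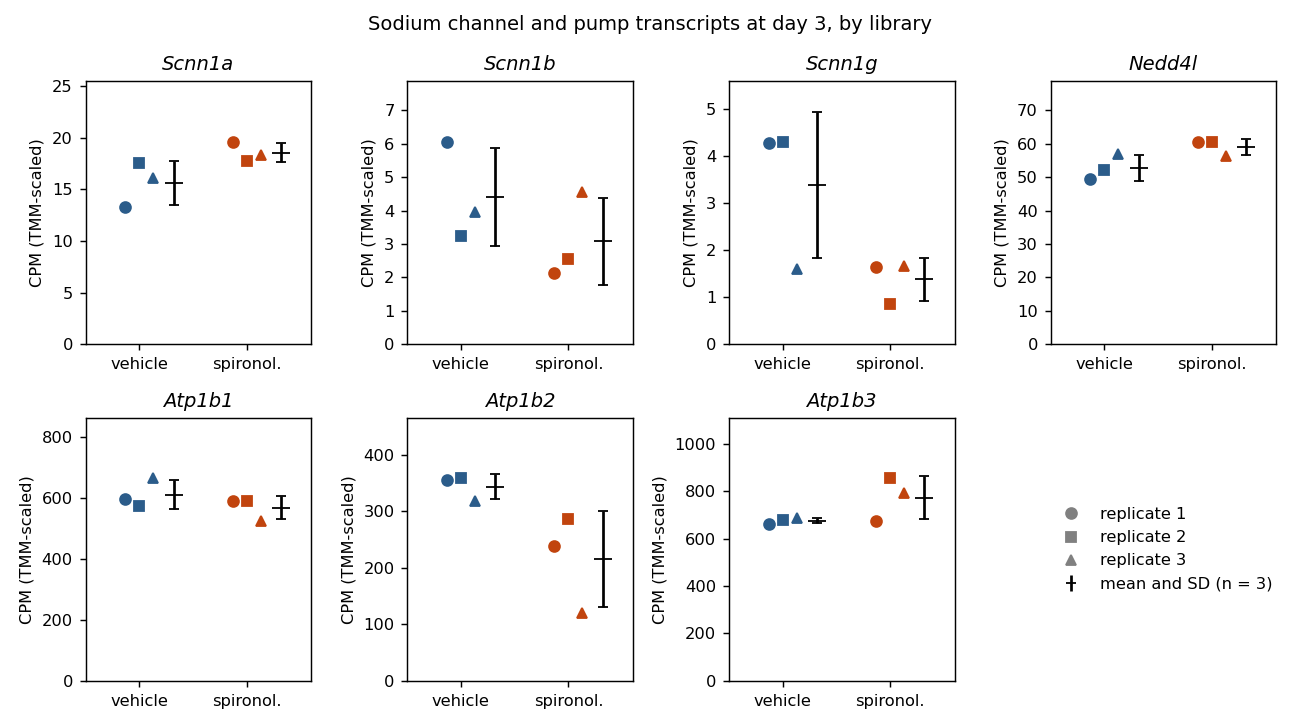
TMM-scaled CPM of each gene in the 6 day 3 libraries, with vehicle in blue, spironolactone in red, a symbol per replicate number and bars for mean and SD (n = 3 each); every axis starts at 0. Scnn1g is high in 2 vehicle libraries and low in the other 4 libraries, and Atp1b2 is lowest in spironolactone replicate 3.

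Scnn1a encodes the alpha subunit, without which the channel carries little current. Its level was 19.6, 17.7 and 18.4 CPM in the spironolactone libraries and 13.3, 17.5 and 16.1 CPM in the vehicle libraries. The groups did not overlap, but spironolactone replicate 2 and vehicle replicate 2 differed by little. The log2 fold change was 0.25 (SE 0.11), with an edgeR adjusted p of 0.249 and a 95% interval for the fold of 0.986 to 1.43. On the TPM scale vehicle replicate 2, at 8.38, lay above spironolactone replicates 2 and 3, at 8.19 and 8.33, so the groups did overlap there.

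Scnn1b encodes the beta subunit, whose tail is a binding site for NEDD4L. Its level was 2.14, 2.54 and 4.55 CPM with spironolactone and 6.06, 3.22 and 3.96 CPM with vehicle. Spironolactone replicate 3 was higher than 2 of the 3 vehicle libraries, so the groups overlapped. The log2 fold change was -0.52 (SE 0.35, edgeR adjusted p of 0.402), with a 95% interval of the fold from 0.39 to 1.24. Left out in turn, spironolactone replicate 3 gave -0.91 and vehicle replicate 1 gave -0.22, so these libraries set much of its size.

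Scnn1g encodes the gamma subunit, which proteases cleave to open the channel fully. Its level was 1.63, 0.846 and 1.65 CPM with spironolactone and 4.27, 4.30 and 1.602 CPM with vehicle. Vehicle replicate 3 was as low as the spironolactone libraries, while the other 2 vehicle libraries were well above all 3 of them. The log2 fold change was -1.32 (SE 0.45), with an unadjusted p of 0.0228, an adjusted p of 0.159 by edgeR and a 95% interval of the fold of 0.192 to 0.843. Without vehicle replicate 3 the log2 fold change was -1.63 and edgeR called the gene (adjusted p = 0.0435), as it did 5.27% of all genes in that fit, 1.55% as lower. Over the fits that left out 1 library in turn, the adjusted p ran from 0.0435 to 0.405. Vehicle replicate 3 also had the highest epithelial and lens marker sums of the vehicle group, and their part in its Scnn1g level was not tested.

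The makeup of the channel transcripts was also compared, as shares that no library scaling changes. Scnn1a made up 81.5%, 81.25% and 71.2% of the summed TPM of the 3 subunits in the spironolactone libraries and 52.2%, 66.7% and 70.7% in the vehicle libraries. Its mean share was 78.0% ± 5.88 (SD, n = 3) against 63.2% ± 9.73 (SD, n = 3), and the highest vehicle library came close to the lowest spironolactone library. The share of Scnn1g was 7.56%, 4.37% and 7.09% against 18.6%, 18.2% and 7.85%. Shares within a library add up to the whole, so those of Scnn1a and Scnn1g are not independent of each other. For each of these shares p was 0.1 by exact permutation of the libraries (two-sided), the smallest that 3 against 3 libraries allow, or 0.15 after Benjamini-Hochberg adjustment over the 6 shares compared. Without vehicle replicate 1 the difference in the Scnn1a share, 14.8 percentage points over all libraries, was 9.33. The Scnn1b share, 15.7% against 22.0% on average, overlapped between groups (exact permutation p = 0.3, adjusted 0.36). The summed TPM of the channel was 10.9 ± 0.812 with spironolactone and 11.8 ± 1.0 with vehicle (n = 3 each, exact permutation p = 0.3).

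**Figure D2:**
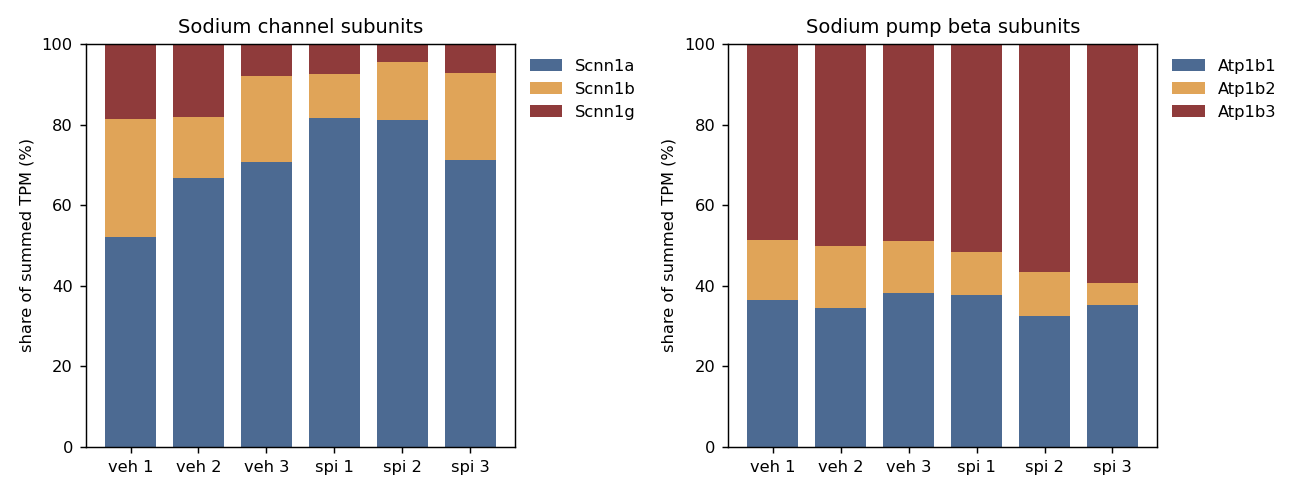
Stacked bars give each subunit's share, in percent, of the summed TPM of the channel's 3 subunits (left) and of the pump's 3 beta subunits (right) in each vehicle (veh) and spironolactone (spi) library. Scnn1g takes 18.6% and 18.2% in vehicle replicates 1 and 2 and under 8% in the other libraries, and Atp1b2 takes 5.28% in spironolactone replicate 3.

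Nedd4l encodes the ligase that marks the channel for removal from the membrane. Its level was 60.6, 60.4 and 56.2 CPM with spironolactone and 49.3, 52.0 and 56.8 CPM with vehicle. Only vehicle replicate 3 reached the spironolactone range. That library also had the highest epithelial marker sum of the vehicle group, 13509 CPM against 10178 and 9755 CPM. The part of epithelial RNA in the Nedd4l values was not tested. The log2 fold change was 0.16 (SE 0.069), with an unadjusted p of 0.0482 and an adjusted p of 0.218 by edgeR. RefSeq places 4 long noncoding genes over Nedd4l, and no source used here says whether reads were counted by strand, so some of its reads may be theirs. Nedd4, which encodes a related ligase, was far more abundant, at 583 ± 4.31 TPM with spironolactone and 590.4 ± 19.5 TPM without (SD, n = 3 each), and its log2 fold change was 0.04 (SE 0.052).

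Atp1b1 encodes the beta subunit found in most transporting epithelia. Its level was 589.8, 589.2 and 524 CPM in spironolactone replicates 1, 2 and 3, against 595, 573 and 663 CPM with vehicle. The groups overlapped and the log2 fold change was -0.11 (SE 0.078, edgeR adjusted p of 0.441). The 95% interval of the fold was 0.818 to 1.06. Without both libraries numbered 3 the log2 fold change was 0.02, so its sign rests on those libraries. Atp1b1 overlaps Nme7 in the RefSeq table, so the genes may share reads.

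Atp1b3 encodes a widely expressed beta subunit and was the most abundant of the 7. Its level was 675, 853 and 790.1 CPM with spironolactone and 663, 678 and 685 CPM with vehicle. The vehicle libraries lay close together, and spironolactone replicate 1 lay among them while the other 2 were above. The log2 fold change was 0.20 (SE 0.088, edgeR adjusted p of 0.244). A pseudogene, Atp1b3-ps2, is listed in the RefSeq table and could take or give reads.

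Atp1b2 encodes the beta subunit typical of glia and of the retina, where photoreceptors carry it. Its level was 238, 286 and 121 CPM with spironolactone and 356, 358 and 318 CPM with vehicle. Every spironolactone library was below every vehicle library, and replicate 3 was the lowest by far. The log2 fold change was -0.68 (SE 0.31), with an edgeR adjusted p of 0.264, since the spironolactone libraries differed widely among themselves (SD of 84.8 CPM against 22.6 CPM). The retina markers ran in the same order of libraries within the spironolactone group, at 3040, 3874 and 266 CPM for replicates 1, 2 and 3. The glial markers, by contrast, overlapped between treatments, at 387 to 424 CPM against 392 to 422 CPM. Without both libraries numbered 3 the log2 fold change of Atp1b2 was -0.44 and edgeR called it (adjusted p = 0.0447), as it did 7.02% of all genes in that fit (4.41% higher and 2.61% lower), while the retina sums of the remaining spironolactone libraries were still below the vehicle range. Without spironolactone replicate 3 alone it was -0.39 (edgeR adjusted p of 0.101). The part of retinal RNA in the Atp1b2 difference was not tested.

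Within the beta subunits, Atp1b2 made up 10.6%, 10.96% and 5.28% of the summed TPM with spironolactone and 15.1%, 15.3% and 13.1% with vehicle. Atp1b3 made up 51.7%, 56.5% and 59.4% against 48.5%, 50.1% and 48.8%. Neither share overlapped between treatments (p = 0.1 each by exact permutation, two-sided, the smallest possible), and p was 0.15 after adjustment over the 6 shares. Shares within a library add up to the whole, so a lower Atp1b2 share alone raises the Atp1b3 share. In CPM the Atp1b3 values of the treatments overlapped. The share of Atp1b1 was 35.2% ± 2.62 against 36.3% ± 1.8 (SD, n = 3 each, exact permutation p = 0.6). Summed over the 3 genes, beta-subunit transcripts were at 1232 ± 111 TPM and 1276 ± 14.2 TPM (n = 3 each, exact permutation p = 0.4).

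**Figure D3:**
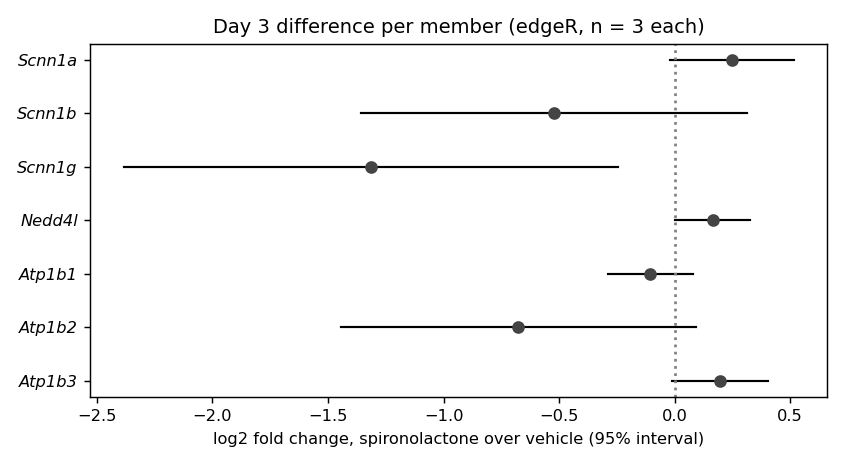
Points are log2 fold changes of spironolactone over vehicle at day 3 by edgeR (n = 3 each) and lines are 95% intervals, with 0 as a dotted line. The intervals of Scnn1g (-2.38 to -0.25) and, barely, Nedd4l (0.002 to 0.327) leave out 0, and neither gene passed after adjustment over all genes.

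Atp1b4, a relative of the beta subunits that is found in muscle, had 6, 2 and 4 reads with spironolactone and 24, 17 and 49 reads with vehicle. The groups did not overlap at these low counts, with means of 0.206 ± 0.129 CPM and 1.27 ± 0.695 CPM (SD, n = 3 each). Its log2 fold change was -2.68 (SE 0.6, edgeR adjusted p of 0.0769). Beside it stand the 8 muscle markers, with 106 to 183 CPM in sum against 327 to 697 CPM, and their part was not tested.

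**Figure D4:**
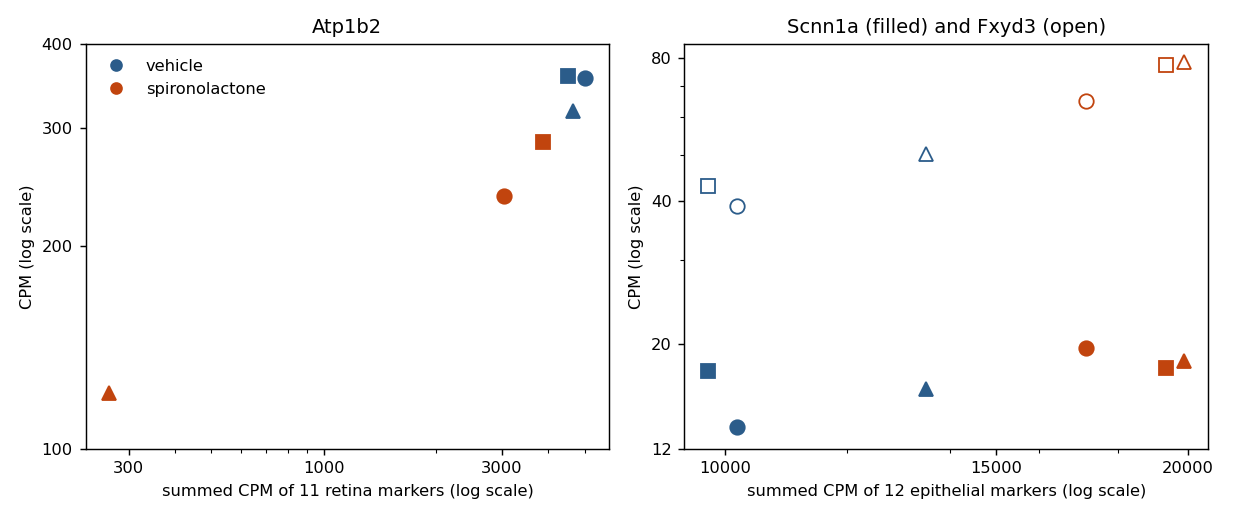
Each symbol is 1 day 3 library (circle, square and triangle for replicates 1, 2 and 3; blue vehicle, red spironolactone), on log axes in CPM: Atp1b2 against the sum of 11 retina markers (left), and Scnn1a (filled) and Fxyd3 (open) against the sum of 12 epithelial markers (right). Spironolactone replicate 3 is at 266 CPM of retina markers and 121 CPM of Atp1b2; on the right the spironolactone libraries lie at 17173 CPM or above of epithelial markers.

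The FXYD proteins are small membrane partners that tune the pump. Of 7 genes 6 were tested, 2 with positive and 4 with negative log2 fold changes (median -0.13, against -0.01 over all genes). By edgeR 0 passed the adjusted threshold. At an unadjusted p under 0.05, 1 was higher and 3 were lower, where 12.2% of all genes were higher and 10.4% lower. Fxyd3, an epithelial member, was at 64.9, 77.3 and 78.4 CPM under spironolactone against 39.0, 43.0 and 50.3 CPM, and its log2 fold change was 0.74 (SE 0.11, edgeR adjusted p of 0.0649). It was higher in 3 of 3 spironolactone libraries than in any vehicle library, and without vehicle replicate 3 edgeR called it (adjusted p = 0.0168, where the other fits with 1 library left out gave 0.0847 to 0.259). Fxyd3 was also called by DESeq2 (adjusted p = 3.92e-06), by edgeR with no filter on low counts (0.0438) and by edgeR without both libraries numbered 3 (0.0143). With no filter edgeR called 0.787% of all genes, 0.564% higher and 0.223% lower. The 12 epithelial markers, all positive with a median of 0.58, moved with it, and their part in its value was not tested. Fxyd7, a brain form, had -0.87 (SE 0.26, edgeR adjusted p of 0.119) at only 11 to 32 reads per library. Fxyd1, the form of heart and muscle, had -0.24 (SE 0.089), and Fxyd2, the kidney form, 0.18 (SE 0.22).

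The enzymes that cleave the channel and their inhibitors had mostly higher values. Of 6 tested genes 5 were positive with groups that did not overlap, where 16% of all genes were higher without overlap, and the median log2 fold change was 0.49. By edgeR 0 passed the adjusted threshold and 5 were higher at an unadjusted p under 0.05, where 12.2% of all genes were. DESeq2 called 5, all higher, where it called 6.12% of all genes higher. Prss8, which encodes the channel-activating protease prostasin, was at 58.0, 51.9 and 49.97 CPM under spironolactone against 29.5, 35.2 and 45.4 CPM, and its log2 fold change was 0.54 (SE 0.16, edgeR adjusted p of 0.121). St14, which encodes matriptase, had 0.45 (SE 0.079) and Spint2, which encodes an inhibitor of both, 0.39 (SE 0.052), each with an edgeR adjusted p of 0.0649. Tmprss4 and Spint1, named after their values were seen, are the other 2 of the 5, with 0.72 (SE 0.16) and 0.61 (SE 0.13). Furin, whose product cleaves channel subunits on their way to the membrane, had -0.07 (SE 0.086). These 5 genes stand beside epithelial markers, all 12 positive with a median of 0.58 and sums of 17173 to 19889 against 9755 to 13509 CPM, and the part of that in the protease values was not tested. Scnn1a, at 0.25, was positive by less than the median of those markers, a difference that was not tested.

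Among 16 genes of kinase and ubiquitin control 15 were tested, 8 positive and 7 negative with a median of 0.04, and 0 passed by edgeR. At an unadjusted p under 0.05, 4 were higher and 2 lower, where 12.2% of all genes were higher and 10.4% lower. Sgk1, the kinase gene that mineralocorticoids induce, was at 163.4, 151 and 127 CPM with spironolactone and 195, 207 and 163.2 CPM with vehicle. The lowest vehicle library and the highest spironolactone library were nearly equal, and the log2 fold change was -0.36 (SE 0.12, edgeR adjusted p of 0.156). Usp2, which encodes a deubiquitinase that stabilises the channel, had -0.64 (SE 0.19, edgeR adjusted p of 0.124). Without spironolactone replicate 3, where Usp2 was lowest at 8.05 CPM, its log2 fold change was -0.445 (edgeR adjusted p of 0.104). Sgk3, a related kinase gene, had 0.36 (SE 0.088, edgeR adjusted p of 0.0844), and Cnksr3, a scaffold gene of the channel's control, 0.23 (SE 0.077). From this list DESeq2 called Sgk3 as higher and Usp2 and Sgk1 as lower, with adjusted p-values of 0.0245, 0.0334 and 0.0487. DESeq2 called 6.12% of all genes higher and 3.55% lower. For the receptor gene Nr3c2 the log2 fold change was -0.08 (SE 0.13), and Hsd11b2, whose enzyme keeps glucocorticoids off the receptor, was scarce at 0.843 and 1.11 CPM.

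Of 5 acid-sensing channel genes, relatives of the sodium channel, 3 were tested: Asic1 had a log2 fold change of -0.87 (SE 0.62), Asic2 -0.32 (SE 0.21) and Asic4 0.04 (SE 0.091). Asic1 was at 2.99, 3.14 and 0.35 CPM with spironolactone and at 3.86, 4.25 and 3.84 CPM with vehicle. Its lowest value was in spironolactone replicate 3, the library with 266 CPM of retina markers. Without that library the log2 fold change was -0.38 (edgeR adjusted p of 0.223). The part of retinal RNA in the Asic1 values was not tested. Of 7 other sodium transporter genes 5 were tested, 3 positive and 2 negative, with 0 called by edgeR. Of these, 1 was higher at an unadjusted p under 0.05, where 12.2% of all genes were. Slc8a1, a sodium-calcium exchanger gene, had 0.04 (SE 0.062) and Slc12a3, a kidney cotransporter gene at 1.2 and 0.78 CPM, 0.62 (SE 0.25). The bicarbonate cotransporter genes Slc4a4 and Slc4a7 had -0.12 (SE 0.078) and -0.10 (SE 0.068). Over all of these lists, 38 of 44 genes were tested, 19 positive and 19 negative with a median of 0.01. At an unadjusted p under 0.05 there were 11 higher and 6 lower, where 12.2% of all genes were higher and 10.4% lower. Of the 11, 5 come from the protease and inhibitor list, which stands beside the epithelial markers above. Each of the 17 kept its sign under RLE scaling, DESeq2 and both TPM scales. They were picked by p from these same libraries, so the kept signs add no separate support. By edgeR and by limma-voom 0 of the 38 were called. DESeq2 called 9, of which 7 were higher, against 9.67% of all genes and 6.12% higher. Without vehicle replicate 3 edgeR called 7, all higher, against 5.27% of all genes and 3.72% higher.

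**Figure D5:**
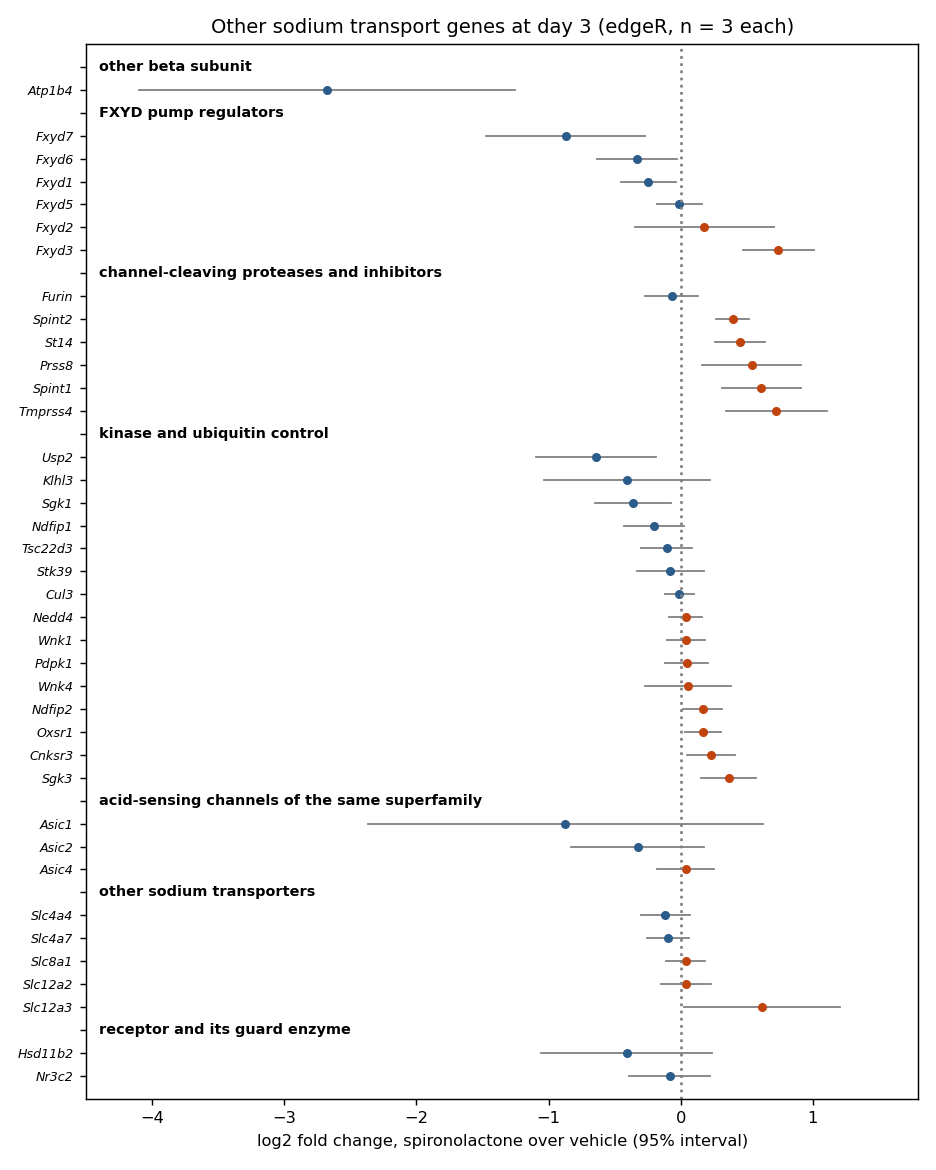
Log2 fold changes of spironolactone over vehicle for the 38 tested genes of the other sodium transport lists, with 95% intervals by edgeR (n = 3 each), ordered within each list; red points are positive and blue points negative. The protease and inhibitor list has 5 of 6 genes to the right of 0, and Atp1b4 lies farthest to the left at -2.68.

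The genes whose log2 CPM followed each member most closely over the 6 libraries were taken from 10203 or 10204 genes with a mean of at least 10 CPM, by Pearson r, as a description only. The 6 points share library and depth, and with so few of them many genes reach a high r. Scnn1g was most like Fam217b, Sept2 and Tshz2, with r of 0.997, 0.996 and 0.994, and Scnn1a most like Proser3, Insig2 and RGD1306556 (0.996, 0.980 and 0.978). Scnn1b was closest to Fastk, Aifm1 and Map3k2 (0.977, 0.976 and 0.971) and Nedd4l to Tsg101, Nccrp1 and Hopx (0.997, 0.997 and 0.996). Atp1b2 was closest to Pcbp4, Slc1a3 and Cyfip2 (0.998 each), Atp1b3 to Acss2, Tfe3 and Vgll4 (0.993, 0.993 and 0.992) and Atp1b1 to Lats1, Lrig2 and Trappc2 (0.986, 0.977 and 0.975). For Atp1b2 488 genes exceeded an r of 0.95, against 12 for Atp1b1 and 15 for Scnn1b.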

How the data were processed

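Among the tools in the submitters' processing notes are RSEM 1.2.28 and STAR 2.5.3a; what each did there is not stated. The deposited values at day 3 are, per the file headers, expected counts, TPM and lengths in bases for each gene symbol. Here the expected counts of the 6 day 3 libraries were rounded; 1 row naming no gene (0.12% to 0.181%) was left out. Low counts were removed with filterByExpr (minimum count 10), and the rest scaled by TMM and tested with edgeR 4.0.16 in R 4.3.3 (robust quasi-likelihood, Benjamini-Hochberg at 0.05). CPM values are TMM-scaled, and the SE is the log2 fold change over the square root of F. Alternatives used DESeq2 1.42.0, limma 3.58.1 (voom, and log2 of TPM plus 1 or 0.1), RLE, other filters, length offsets, a block and libraries left out. The edgeR and DESeq2 fits were checked on simulated data. The members, lists and alternatives were chosen with earlier results of these data known. Named were the 7 members, up to 2 genes per direction and list by smallest p, 6 fixed genes and 3 most similar genes per member. Some genes of the transport lists are not reported here, and the lists' counts leave them out. Day 7 was not used here. Libraries within a group differed by more than sampling noise (chi-square per gene 7.62 to 22.8).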

Additional observations from a re-analysis of the deposited data

How the results depend on the processing

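With all 6 libraries edgeR called 0 members, and each of the 7 log2 fold changes kept its sign under the alternatives run, except Atp1b1, which was 0.017 without both libraries numbered 3. That setting also called 2 members, with -1.83 for Scnn1g (adjusted p = 0.0247) and -0.442 for Atp1b2 (adjusted p = 0.0447), and 1040 genes in all. With 1 library left out in turn, the genes called ran from 0 to 781 and the members called from 0 to 1 (Scnn1g, without vehicle replicate 3). The genes called were 2 without spironolactone replicate 3, 40 without vehicle replicate 1 and 781 without vehicle replicate 3; with no filter there were 148 and with DESeq2 1344. With 1 library left out in turn, the log2 fold changes ran from 0.151 to 0.347 for Scnn1a, -0.908 to -0.216 for Scnn1b, -1.63 to -1.04 for Scnn1g, 0.124 to 0.237 for Nedd4l, -0.139 to -0.026 for Atp1b1, -0.938 to -0.392 for Atp1b2 and 0.119 to 0.284 for Atp1b3. The difference in share of beta-subunit TPM ran from -2.44 to 0.18 percentage points for Atp1b1, where 0.18 came without spironolactone replicate 2. For the channel it ran from 9.33 to 18.6 for Scnn1a, -9.7 to -2.63 for Scnn1b and -12.1 to -6.69 for Scnn1g, with 9.33, -2.63 and -6.69 all without vehicle replicate 1; the Scnn1b share also moved to -3.91 without spironolactone replicate 1 and -9.7 without vehicle replicate 2. The cause of these shifts was not tested. On log2(TPM + 1) Scnn1g had -0.681, since the pseudocount damps low values. With replicate number as a block, Scnn1g had -1.24 (adjusted p = 0.252), and 0 genes were called, as without it. Same-numbered libraries shared only a number: their deviations from the group means correlated at 0.09, -0.084 and 0.049. The planned day 7 fit was not run. Counts of 21 to 146 reads limit what Scnn1b and Scnn1g can show.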

Other observations

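Marker lists of other cell types that are not set beside a member above gave the following sums. Leukocyte markers ran from 591 to 772 CPM with spironolactone and from 783 to 887 CPM with vehicle, with 6 of 6 log2 fold changes negative (median -0.33). Blood endothelial markers ran from 285 to 387 CPM and from 413 to 549.6 CPM, also 6 of 6 negative (median -0.46). The 4 corneal epithelial markers were all positive (median 0.36), at 917 to 1041 CPM against 674 to 883 CPM. The 2 conjunctival markers analysed ran from 9974 to 13528 CPM and from 5322 to 8655 CPM. Pigment cell markers overlapped between treatments, at 2732 to 3463 CPM and 2902 to 3167 CPM, and so did corneal endothelial markers, at 210.3 to 269.6 CPM and 263 to 336 CPM. The part of these lists in the sodium transport genes was not tested.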
